A study of Mus musculus with 50 samples.

Results

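Colon of mice with TNBS colitis that were given A1007 at 30 mpk was compared with colon of TNBS mice given vehicle, 10 libraries against 10. These 20 libraries were taken from a series of 50 by their titles, and every gene that passed an expression filter was tested. All mice are labelled BALBC (the BALB/c strain), and TNBS, trinitrobenzene sulfonic acid, is a hapten used to provoke colitis. Both groups carry TNBS, so the comparison separates the compound from its vehicle within the disease model. The 3 other groups serve as reference: sham mice, TNBS mice on 10 mpk of A1007 and TNBS mice on 90 mpk, with 10 libraries in each. The submitters describe A1007 as a compound taken by mouth that activates AhR, the aryl hydrocarbon receptor. Doses are in mpk, the labels' own unit. The labels give no age, sex, length of dosing or time of tissue collection. The tissue is distal colon according to the series text, and all libraries are labelled as batch 1. Libraries are numbered as replicates and are taken here as 1 mouse each; the labels do not say so, and p-values measure only the spread between these samples.

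As background, AhR is a transcription factor held in the cytoplasm with the chaperone Hsp90 until a small ligand binds it. It then pairs with Arnt in the nucleus and switches on genes such as Cyp1a1, Cyp1b1, Ahrr and Tiparp, the last of which limit its activity again. In the gut it is known for sensing dietary and microbial indoles and for supporting barrier and lymphoid cells. TNBS colitis is known for an influx of neutrophils and monocytes and for a deposition of collagen by fibroblasts.

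The 20 libraries held 15324404 to 18916591 counts in the vehicle group and 15494095 to 18362878 counts at 30 mpk. Colon markers were present in every group, with Car1 at medians of 1260 FPKM in vehicle and 1190 FPKM in dosed mice and Cdx1 at 102 and 153 FPKM (reads scaled by exon length and library size). Some libraries stood apart. Vehicle replicate 6 held 6.83% of its counts in genes of a pancreas list, against a group median of 0.32%. A1007 30 replicate 1 had Xist, the RNA of the inactive X chromosome, at 0.1 FPKM against a group median of 23.5, while the Y-linked gene Ddx3y reached at most 0.02 FPKM in the group. Vehicle replicates 5 and 9 had the highest levels of S100a9, an alarmin of neutrophils, at 1992.54 and 3904.29 FPKM.

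Of 16685 genes tested, 5131 (30.8%) changed at an adjusted p under 0.05 in edgeR's quasi-likelihood test. Of these, 2327 (13.9%) were higher and 2804 (16.8%) lower in dosed mice, and 683 (4.09%) differed at least 2-fold, 167 (1.0%) higher and 516 (3.09%) lower. Higher calls made up 45.4% of all calls, and 56.7% with quantile normalization. Between the groups there was no overlap in FPKM for 73 higher genes (0.438%) and 101 lower ones (0.605%). The count of calls without single libraries stayed between 4211 and 6806. Falls were led by alarmins and myeloid genes and rises by immediate early genes and secreted defence proteins of the epithelium, as the plot of all genes shows. The smallest p of all belonged to a predicted gene, Gm26532, which averaged 15.95 ± 6.18 against 3.981 ± 0.519 FPKM (SD, n = 10 each) and is left out of the naming rule.

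**Figure D1:**
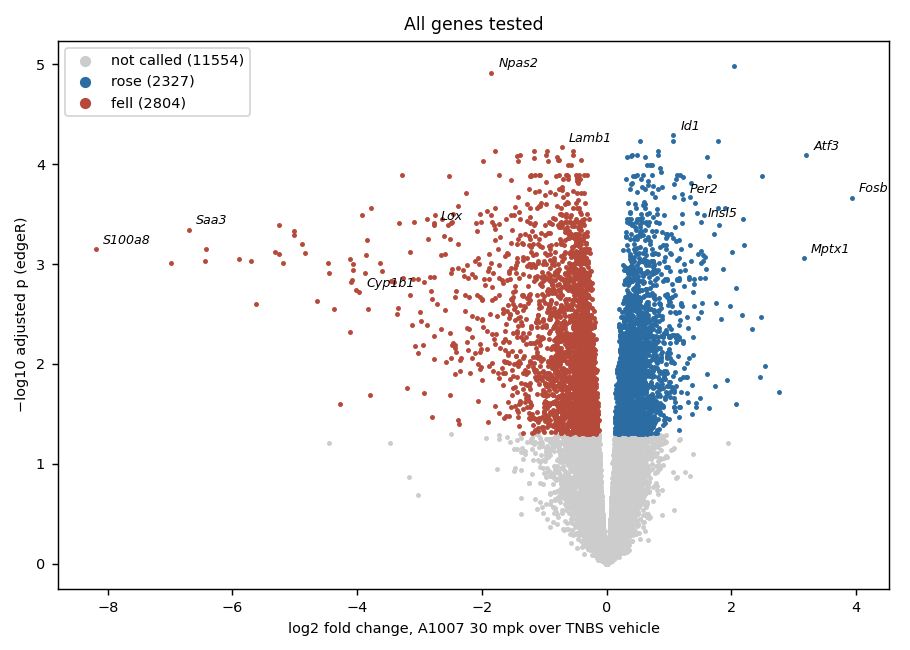
Each point is 1 gene, with the log2 fold change of A1007 30 mpk over TNBS vehicle across and −log10 of edgeR's adjusted p upward. Falls reach further than rises, to -8.19 for S100a8 against 3.93 for Fosb.

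Alarmins and neutrophil genes were lower in dosed mice. S100a9 ran from 6.58 to 3904 FPKM in vehicle mice, with a median of 189.1, and from 0.58 to 28.31 FPKM at 30 mpk, with a median of 2.525. Vehicle replicates 1, 3 and 10 lay below the highest dosed mice, replicates 1 and 2, and the log2 fold change was -6.98 (SE 1.30, adjusted p = 0.000966). Its partner in calprotectin, S100a8, had a median of 86.72 FPKM in vehicle mice and 0.44 FPKM in dosed mice and fell by 8.19 on the log2 scale (SE 1.46, adjusted p = 0.000708), a call lost with quantile normalization. Saa3, an acute-phase serum amyloid, went from a vehicle range of 2.49 to 853.6 FPKM to 0.66 to 3.31 FPKM in dosed mice (-6.70, SE 1.11, adjusted p = 0.000453). Lcn2, which captures bacterial iron carriers, fell by 6.44, a call lost with quality weights, with the rank-sum test and with quantile normalization. Of the alarmin list 7 of 9 tested members fell and 0 rose (median -5.70), with Hp, haptoglobin, at -5.70. The count was 4 with quantile normalization.

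Of the neutrophil markers 10 of 12 tested fell and 0 rose (median -3.62). Csf3r, the receptor of the granulocyte growth factor, had medians of 6.025 FPKM in vehicle and 0.64 FPKM in dosed mice (-3.33, SE 0.55, adjusted p = 0.000387). Trem1, an amplifier of myeloid inflammation, fell by 5.25 and Mmp9, a gelatinase of neutrophil granules, by 2.50. Another 7 of the 19 listed neutrophil genes did not pass the filter, and the count was 16 without it and 3 at a count minimum of 50. The summed level of the list ran from 53.8 to 1809 CPM (counts scaled to library size) in vehicle and from 57.5 to 130.5 CPM in dosed mice, so the groups shared their lower end. In bulk tissue such a fall cannot separate fewer cells of a type from less RNA per cell, and this holds for every cell type list below.

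Monocyte and macrophage genes fell as well, with less spread. Mrc1, the mannose receptor, ran from 8.21 to 18.12 FPKM in vehicle mice (median 11.98) and from 4.62 to 6.89 FPKM in dosed mice (median 5.745). The groups did not overlap, and the fall was -1.16 (SE 0.14, adjusted p = 7.34e-05). Csf1r, the receptor of the macrophage growth factor, fell by 0.81 without overlap, and Msr1, a scavenger receptor, by 2.09. In all, 18 of 25 tested macrophage genes fell and 0 rose (median -1.10). Of the innate receptor list 12 of 20 fell, among them the endosomal RNA sensor Tlr8 at -2.53, its relative Tlr13 at -2.25 and Nod2, a sensor of bacterial wall fragments, at -0.99. Complement genes fell in 11 of 16 cases and rose in 1, Cd59a at 0.42, a call lost without any of 11 single libraries, vehicle replicate 2 for example, with the anaphylatoxin receptors C3ar1 at -1.39 and C5ar1 at -2.39. Without vehicle replicate 6 and A1007 30 replicate 1 together, 7 complement genes fell.

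Inflammatory cytokines and CXC chemokines were lower, while CC chemokines changed in both directions. Il11, which acts on stromal cells, had medians of 3.025 and 0.31 FPKM in vehicle and dosed mice (-4.89, SE 0.86, adjusted p = 0.000626). Il1a fell by 5.19 and Inhba, a subunit of activin, by 2.39, and 8 of 13 tested cytokine genes fell with 0 rises (median -2.08). Of 24 listed cytokines 11 did not pass the filter. CXC chemokines fell in 7 of 11 cases, Cxcl5 by 5.25 and Cxcl14 by 1.10, the latter without overlap. Cxcl2, a neutrophil attractant, fell by 5.63, a call lost under 6 alternatives, and the list's count was 4 with quality weights, with the rank-sum test, with quantile normalization and with the replicate block. CC chemokines fell in 4 of 15 cases and rose in 3. The falls numbered 7 in the fit of 40 mice and with DESeq2 and 2 with the rank-sum test, quantile normalization and the replicate block, and the rises 1 with exon length correction. Ccl2 and Ccl7, attractants of monocytes, fell by 3.03 and 2.94, while Ccl20, an epithelial attractant of lymphocytes, rose by 0.90. Of the NF-kB targets and feedback genes 6 of 18 fell and 0 rose, with Icam1, an adhesion molecule of vessels, at -0.64 and Birc3, an inhibitor of cell death, at -0.46. That count was 2 with quantile normalization. Of the prostaglandin genes 5 of 15 fell and 2 rose. Ptges, which makes prostaglandin E2, fell by 1.28 without overlap, and Ptgs2, the inducible cyclooxygenase, by 2.59, a call lost with quality weights, the rank-sum test, quantile normalization and the replicate block.

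Extracellular matrix genes fell together. Of 19 tested collagen genes 16 fell and 0 rose (median -1.02), a count that was 16 under every alternative run on this list. Col4a2, of basement membranes, ran from 43.31 to 97.58 FPKM in vehicle mice (median 57.05) and from 17.96 to 39.05 FPKM in dosed mice (median 26.2), without overlap. Its log2 fold change was -1.17 (SE 0.15, adjusted p = 8.57e-05). The fibrillar chain Col5a1 fell by 1.22 and Col18a1 by 1.09. Collagen processing enzymes fell in 15 of 18 cases. Lox, which cross-links collagen, had medians of 20.41 and 3.555 FPKM (-2.77, SE 0.46, adjusted p = 0.000406), and its relatives Loxl2 and Loxl4 fell by 1.22 and 1.54. Of 28 tested matrix proteins and fibroblast genes 20 fell and 1 rose, the latter Tagln, which smooth muscle also expresses, at 0.83. Fbn1, a fibrillin of elastic fibres, fell by 1.44, the fibroblast receptor Pdgfra by 0.98 and Tgfbr2, a receptor of TGF-beta, by 0.67, and in none of these did the groups overlap. Proteases and their inhibitors fell in 17 of 22 cases and rose in 1, with Mmp14, a membrane protease, at -0.79, Mmp2 at -0.97 and Mmp10, a stromelysin, at -3.78. Lamb1, a laminin chain, was among the 10 genes with the smallest p by the naming rule and fell by 0.72 without overlap (SE 0.09, adjusted p = 6.74e-05).

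**Figure D2:**
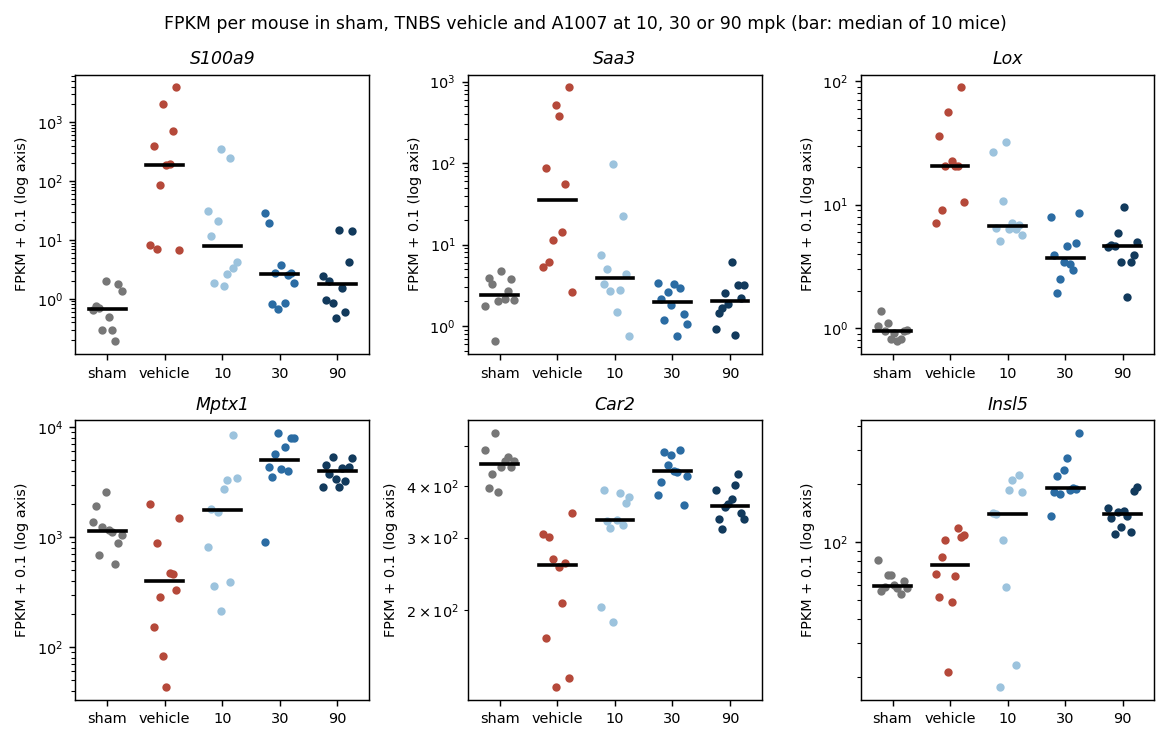
FPKM of each library (log axis, with 0.1 added) for 6 genes in sham, vehicle and the 3 doses, with a bar at the median of 10. S100a9 runs from 6.58 to 3904 FPKM in vehicle mice, Lox falls, and Mptx1, Car2 and Insl5 are higher at 30 mpk, the latter 2 without overlap with vehicle.

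Some genes of repair, growth and vessels also fell, against a share of 16.8% among all genes. Falls made up 35.7% of the regenerative, 33.3% of the endothelial and lymphatic and 35.3% of the hypoxia list. Pancreas genes, at 14.3%, lay below that share. The lymphatic, squamous and tuft lists hold at most 10 tested genes, so their excess over it rests on few genes. Of 14 tested regenerative epithelium genes 5 fell, among them the growth factor Ereg at -2.30, osteopontin, Spp1, at -3.87 and the alarm cytokine Il33 at -2.08. Proliferation genes fell in 11 of 22 cases, with Rrm2, which supplies deoxynucleotides, at -1.27 without overlap, Top2a at -0.90 and Bub1, of the mitotic checkpoint, at -0.79. Endothelial genes fell in 6 of 18 cases, with Selp, the selectin that catches leukocytes, at -2.61, Apln at -1.20 and Cdh5, of endothelial junctions, at -0.46. Of 9 lymphatic genes 3 fell, Pdpn by 1.47, and Ccl21a, a chemokine of lymphatic vessels, rose by 0.55, a call lost without A1007 30 replicate 7, without a filter and with exon length correction; 2 lymphatic genes rose without vehicle replicate 5 or A1007 30 replicate 8. Hypoxia and glycolysis genes fell in 6 of 17 cases, with Hk2, hexokinase, at -0.55 and Pfkfb3 at -1.42. Of the squamous list 3 of 7 fell and 2 rose, with Krt13 at -3.35, lost with quality weights and quantile normalization, and Lor, loricrin, at 1.32; 7 of its 14 genes did not pass the filter, and 1 rose without any of 14 single libraries, vehicle replicate 1 for example. Of 21 pancreas genes 7 were tested, and the 1 that fell was Zg16, which goblet cells also make, at -0.75, a call lost with the rank-sum test, without a filter and with the replicate block. Without vehicle replicate 6, 3 pancreas genes rose, without A1007 30 replicate 2, 4 fell, and in the fit of 40 mice 5 fell. Tuft cell genes fell in 3 of 10 cases and rose in 1, Rgs13 at 0.67, a call lost without any of 14 single libraries. Those that fell include Alox5ap, which myeloid cells also express, at -2.43 and Dclk1 at -0.42. The Alox5ap call is lost under 6 alternatives, where its value reaches -0.55, and the Dclk1 call with exon length correction; with the replicate block the count was 0.

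Secreted defence genes of the epithelium changed in both directions, while colonocyte and goblet lists lay near or below the shares of all genes, 13.9% up and 16.8% down. Mptx1, a pentraxin secreted by the intestinal epithelium, ran from 43.15 to 2015 FPKM in vehicle mice (median 396.0) and from 903.2 to 8824 FPKM in dosed mice (median 4969). Only A1007 30 replicate 1 lay within the vehicle range, and the rise was 3.16 (SE 0.59, adjusted p = 0.000879). Its relative Mptx2 rose by 2.47 and Ang4, an antimicrobial ribonuclease of goblet and Paneth cells, by 2.77; reads of close paralogs cannot be told apart with certainty. Among antimicrobial genes 6 of 19 rose and 8 fell. Itln1, a lectin that binds microbial sugars, rose by 1.93 and Reg4 by 1.28, while Reg3b, a lectin that acts on bacteria, fell by 4.11, Nos2 by 2.95 and the protease inhibitor Slpi by 2.65. Defa30, a defensin of the small intestine list, rose by 2.46, from a median of 0.135 to 2.31 FPKM, Hamp2, of the hepcidin family, by 2.33 and the esterase gene Ces1c by 2.54. In the small intestine list as a whole 1 of 5 tested genes rose and 1 fell, the brush border phosphatase Alpi at -1.05, and 2 rose without vehicle replicate 1 or A1007 30 replicate 1.

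Among colonocyte genes 4 of 33 rose and 4 fell (12.1% each), with a median of -0.06, no more than among all genes. Car2, a carbonic anhydrase, ran from 129.8 to 344.9 FPKM in vehicle mice and from 360.6 to 488.4 FPKM in dosed mice, without overlap (0.91, SE 0.15, adjusted p = 0.000323). Muc3, a mucin of the brush border, rose by 0.63, and the adhesion molecule Ceacam1 fell by 0.55. The rises numbered 2 without vehicle replicate 5 or 7 or A1007 30 replicate 4, and the falls 2 without vehicle replicate 6 or A1007 30 replicates 6 or 7. Goblet genes rose in 2 of 23 cases (8.7%) and fell in 4 (17.4%), among them the membrane mucins Muc4 at -0.70 and Muc1 at -1.08, the latter a call lost with quality weights and quantile normalization; Muc2, the main gel-forming mucin, was at -0.33 and did not pass. The goblet rises numbered 1 to 5 with 1 library left out, with 5 without vehicle replicate 9 and 1 without vehicle replicate 5, and 7 with quality weights. Tight junction genes rose in 5 of 21 cases (23.8%) and fell in 3 (14.3%). Cldn23 rose by 0.82 without overlap, whereas Cldn8, a claudin that seals the distal colon, fell by 1.16 and Cldn2, a claudin that forms cation pores, by 0.60. The falls numbered 6 without vehicle replicate 9 and 5 without A1007 30 replicate 1.

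Of 17 stem cell and Wnt genes 5 rose (29.4%) and 2 fell (11.8%), against 13.9% and 16.8% of all genes. Ascl2, a regulator of crypt stem cells, was at 1.20, Cdx1, an intestinal identity factor, at 0.62 and Cd44 at -0.92. The rises numbered 2 without vehicle replicates 2 or 5 or A1007 30 replicates 3 or 5, and 3 without 7 other single libraries. Insl5, a hormone of distal enteroendocrine cells, ran from 21.15 to 119.0 FPKM in vehicle mice and from 136.3 to 367.8 FPKM in dosed mice (1.51, SE 0.25, adjusted p = 0.000383). Somatostatin, Sst, rose by 0.77 and Tph1, the enzyme of serotonin synthesis, fell by 0.58; in all 3 of 15 enteroendocrine genes rose and 1 fell, with 5 rises without vehicle replicate 9. Distal Hox genes, whose level depends on position along the gut, rose in 4 of 8 cases, with Hoxd13 at 1.01 and Hoxb13 at 0.76, the latter lost in the fit of 40 mice. The part of tissue position in the epithelial values was not tested.

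B cell, MHC class II and smooth muscle genes rose in larger shares than the 13.9% of all genes, and T cell and interferon genes in smaller ones. B and plasma cell markers rose in 6 of 21 cases (28.6%) and fell in 0. Cd79a, of the B cell receptor, had medians of 16.09 and 35.36 FPKM (1.09, SE 0.27, adjusted p = 0.00514), Cd79b rose by 1.13 and Fcrla by 1.23. Without A1007 30 replicate 3, which was lowest in Cd79b and Fcrla, 10 rose. Of 16 genes of MHC class II presentation and dendritic cells 8 rose and 1 fell, with the chains H2-Aa at 0.94, H2-Ab1 at 0.97 and H2-Eb1 at 0.84, and 2 fell without vehicle replicate 6. The T cell list had 1 rise in 20 (5.0%), Bcl11b at 0.44 (2 without vehicle replicate 3). Of 24 interferon response genes 2 rose (8.33%), Psmb9 by 0.77 and Psmb8 by 0.53, subunits of the immunoproteasome, the latter a call lost in the fit of 40 mice; without vehicle replicate 4, 4 rose. Of 13 mast cell and eosinophil genes 0 were called by edgeR, 1 had an unadjusted p under 0.05, DESeq2 called 2 lower and quality weights 5 higher; 1 rose without vehicle replicate 7 or 10. Mcpt1 and Mcpt2, mast cell proteases, had means of 95.81 and 43.54 FPKM in vehicle and 98.02 and 41.78 FPKM at 30 mpk. The log2 fold changes were 0.09 and -0.00, with SEs of 0.73 and 0.72. The vehicle means rest largely on replicate 7, at 545.85 and 254.85 FPKM. For Mcpt1 the other vehicle mice ran from 0.53 to 154.99 FPKM and the dosed mice from 21.06 to 150.22 FPKM, so equal means do not show equal groups. Quality weights called Mcpt1 at 2.23.

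Smooth muscle genes rose in 6 of 15 cases, with Tpm2, a tropomyosin, at 0.79, the myosin light chain Myl9 at 0.74 and Smtn at 0.58. The count was 3 without vehicle replicates 5 or 8, without A1007 30 replicates 7 or 9, and with the replicate block. Enteric glia genes rose in 6 of 11 cases (54.5%) and fell in 1 (9.09%). S100b rose by 1.21 and Sox10, a regulator of glial identity, by 0.87, the latter a call lost with the rank-sum test and the replicate block. The glial rises numbered 3 under the block and 2 at a count minimum of 50. Neuron genes rose in 2 of 15 cases (13.3%), Calb2 and Uchl1, and fell in 2 (13.3%), near the 13.9% and 16.8% of all genes. Among the falls was the receptor Ret at -0.52. Both rises are lost with exon length correction, which leaves 0, and with the rank-sum test, and Calb2 also with the replicate block; Ret is lost with quality weights. Without A1007 30 replicate 1, 4 rose and 1 fell, and the falls numbered 1 without vehicle replicates 2, 5 or 9 or A1007 30 replicates 3, 4, 5 or 10. Of 5 pacemaker cell genes 1 rose, Thbs4 at 0.44, a call lost in the fit of 40 mice, with quality weights and with the replicate block (2 genes rose without vehicle replicate 1), and of 10 muscle and fat genes 1, Ckm at 0.99. Of 5 erythroid genes 0 were called by edgeR and 0 had an unadjusted p under 0.05, while quality weights called 4; Hbb-bs and Hba-a1 were at 0.20 and 0.36.

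**Figure D3:**
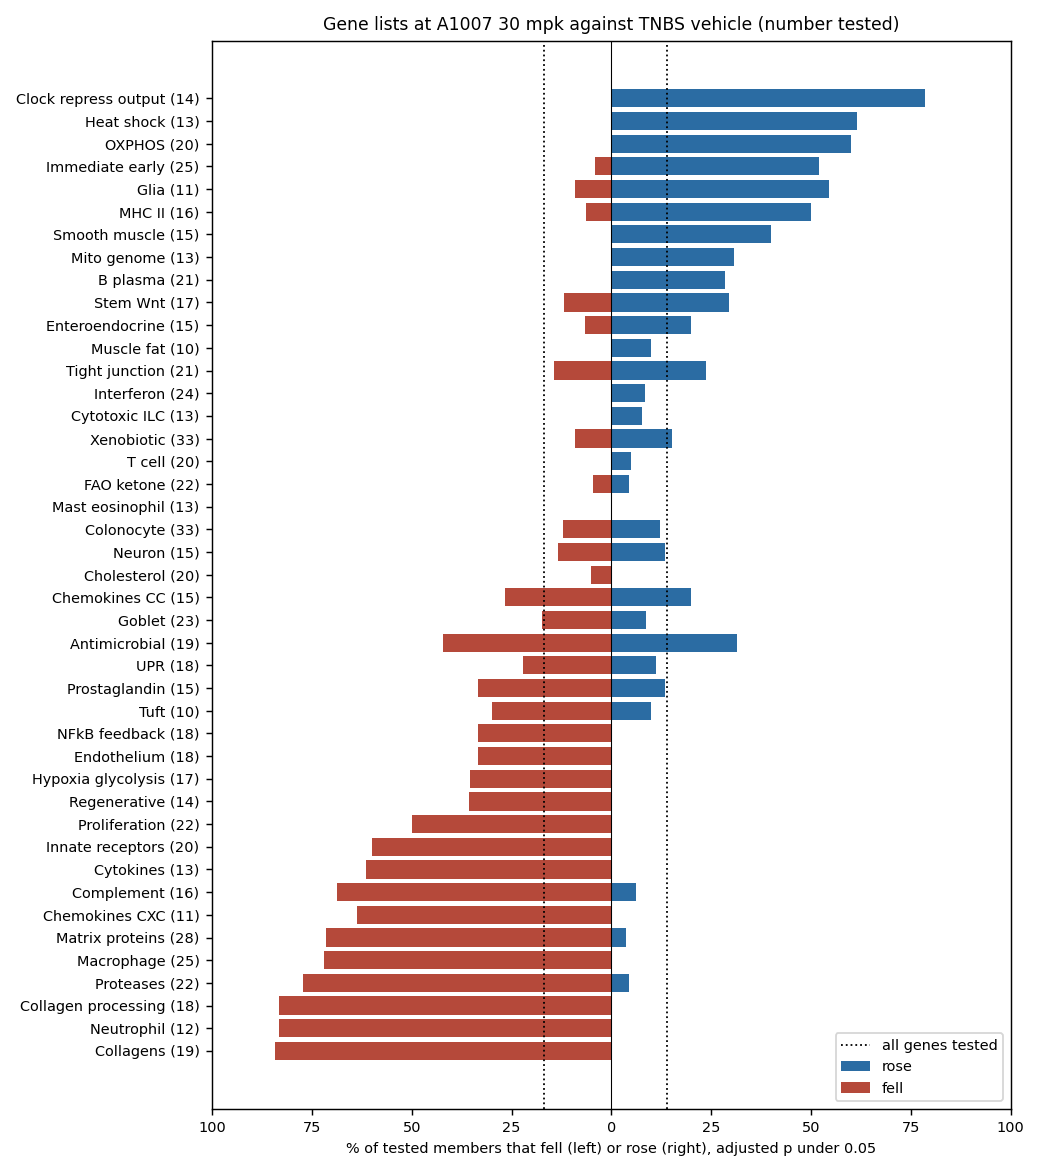
Share of tested members of each list with at least 10 tested genes that fell (left) or rose (right) at 30 mpk against vehicle, with dotted lines at the shares of all genes, 16.8% and 13.9%. Collagens, neutrophil genes and collagen processing lie lowest, and clock repressors and outputs lie highest.

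Immediate early genes, which cells transcribe within minutes of a stimulus, were higher at 30 mpk. Fosb, a subunit of the transcription factor AP-1, ran from 0.51 to 10.39 FPKM in vehicle mice (median 1.125) and from 9.18 to 68.29 FPKM in dosed mice (median 28.11). Vehicle replicate 2 alone overlapped with the dosed mice, and the rise was 3.93 (SE 0.58, adjusted p = 0.000217). Atf3, a stress-induced factor, ran from 4.63 to 15.7 FPKM in vehicle mice and from 19.32 to 195.6 FPKM in dosed mice, without overlap (3.20, SE 0.39, adjusted p = 8.12e-05). Jun rose by 1.79, Fos by 2.2 and Ier2 by 1.64, and Hbegf, a ligand of the epidermal growth factor receptor outside the list, by 2.49 without overlap. Of 25 tested immediate early genes 13 rose and 1 fell, Nr4a2 at -0.42, a call lost when any of 14 single libraries, vehicle replicate 1 for example, was left out. Sham mice had 3.378 FPKM of Fosb and 10.08 of Atf3, close to the 2.438 and 10.03 of vehicle mice. The order of mean levels of Atf3 was 90.08 FPKM at 30 mpk, 48.92 at 10 mpk, then sham, vehicle and 7.712 at 90 mpk, and at 10 mpk single mice lay in either range.

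Heat shock genes rose in 8 of 13 cases. Hspa1a, an inducible Hsp70 chaperone, rose by 2.19, its near copy Hspa1b by 1.80 and the co-chaperone Dnajb1 by 1.07, the last without overlap. Here sham mice were not lower: Hspa1a averaged 17.35 FPKM in sham, 5.108 in vehicle and 22.67 at 30 mpk. Id1, an inhibitor of differentiation factors, ran from 41.99 to 71.17 FPKM in vehicle mice and from 98.8 to 141.2 FPKM in dosed mice (1.06, SE 0.12, adjusted p = 5.12e-05). Unfolded protein response genes rose in 2 of 18 cases (11.1%) and fell in 4 (22.2%), near the 13.9% and 16.8% of all genes. Ddit3 was at 0.6, Atf6 at -0.29 and Asns at -0.75, the last a call lost with quality weights. The falls numbered 1 with quality weights and 7 with exon length correction, and leaving out 1 library gave 1 rise in most cases, without vehicle replicate 5 for example.

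The promoters of Fosb and Atf3, immediate early genes that rose, are shown because they hold the motif searched for; Jun, which rose by 1.79, was looked at and holds none in this window. RefSeq gives 250 bases upstream of the start (build GRCm38.p6), here with the cyclic AMP response half-site TGACG, on either strand, in capitals.
Fosb, chr7:19310046-19310295, minus strand: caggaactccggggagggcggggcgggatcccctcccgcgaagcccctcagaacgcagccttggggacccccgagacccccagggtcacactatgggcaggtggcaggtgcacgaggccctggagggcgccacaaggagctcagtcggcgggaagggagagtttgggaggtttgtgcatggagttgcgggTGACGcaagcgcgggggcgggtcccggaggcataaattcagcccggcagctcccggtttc
Atf3, chr1:191183334-191183583, minus strand: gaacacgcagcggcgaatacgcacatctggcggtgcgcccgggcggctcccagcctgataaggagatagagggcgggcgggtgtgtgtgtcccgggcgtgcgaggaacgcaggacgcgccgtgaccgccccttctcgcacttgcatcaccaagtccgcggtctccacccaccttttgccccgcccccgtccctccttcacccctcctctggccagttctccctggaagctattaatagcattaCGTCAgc
The half-site stood in 13 of 22 immediate early genes with a promoter in the table (59.1%), against 28.5% of the 11992 tested genes with one and 17.8% of all 32851 promoters. The full palindrome TGACGTCA, which contains the half-site, stood in 2 of the 22 and in 2.84% of tested genes. Among genes that rose at least 2-fold, 20.9% held the half-site. These matches describe letters in a window and are not evidence of binding.

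**Figure D4:**
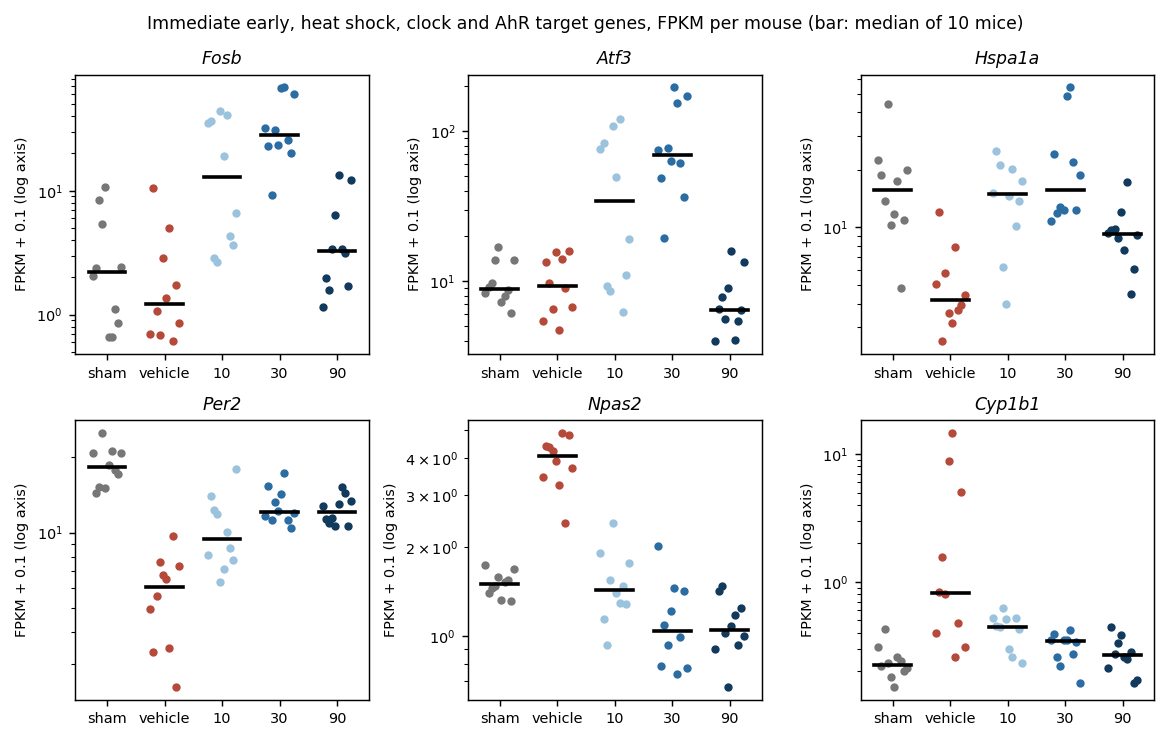
FPKM per library (log axis, with 0.1 added) for 6 genes in the 5 groups, with a bar at the median of 10. Fosb and Atf3 are high at 30 mpk and in some mice at 10 mpk, Per2 is lowest and Npas2 highest in vehicle mice, and Cyp1b1 is high in 3 vehicle mice.

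Circadian clock genes differed in opposite directions by arm. The clock is a loop in which Arntl (BMAL1), Clock and Npas2 switch on the Per and Cry repressors and output genes such as Dbp, Tef and Hlf through E-boxes. Per2 ran from 2.32 to 9.57 FPKM in vehicle mice (median 5.95) and from 10.33 to 17.14 FPKM in dosed mice (median 11.93), without overlap (1.22, SE 0.19, adjusted p = 0.000222). Cry2 rose by 0.74 without overlap, Hlf by 1.54 and Dbp by 2.18. The list of clock repressors and outputs held 14 tested genes, of which 11 rose, 4 of them without overlap, and 0 fell. Npas2 had the smallest p of the named genes and fell by 1.85, from 2.32 to 4.77 FPKM in vehicle mice to 0.64 to 1.92 FPKM in dosed mice (SE 0.19, adjusted p = 1.21e-05). Arntl fell by 1.79 and Nfil3, a repressor listed with the activators, by 2.01, and 4 of 6 genes of that list fell and 1 rose. Vehicle mice stood apart from sham in the same genes, with Per2 at 18.48 FPKM in sham and 5.674 in vehicle, and Npas2 at 1.403 and 3.844. The hour of collection is not given, and its part in these values was not tested.

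Promoters of 2 clock genes that rose are shown because they hold the E-box CACGTG, here in capitals; Dbp, which rose more, was looked at and holds none in this window.
Tef, chr15:81802423-81802672, plus strand: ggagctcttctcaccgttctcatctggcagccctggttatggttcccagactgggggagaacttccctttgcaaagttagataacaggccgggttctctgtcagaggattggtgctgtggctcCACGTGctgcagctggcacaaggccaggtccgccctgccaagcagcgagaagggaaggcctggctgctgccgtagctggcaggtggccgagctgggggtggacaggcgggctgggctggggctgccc
Ciart, chr3:95882229-95882478, minus strand: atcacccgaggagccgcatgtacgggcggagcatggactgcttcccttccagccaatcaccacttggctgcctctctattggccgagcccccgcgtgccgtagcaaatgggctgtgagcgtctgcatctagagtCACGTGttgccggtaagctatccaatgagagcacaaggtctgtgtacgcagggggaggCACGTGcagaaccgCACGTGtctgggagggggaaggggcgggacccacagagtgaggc
Tef rose by 1.51 and Ciart, a repressor of the clock, by 1.75. The E-box stood in 5 of 12 genes of the list with a promoter in the table (41.7%), in 9.44% of tested genes with one and in 6.02% of all promoters. It also stood in 6 of 22 immediate early genes (27.3%). GCGTG, a motif searched because of AhR, stood in 12 of the 12 clock genes, against 47.3% of tested genes. A high share in this list is thus not particular to the E-box.

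Of the classic AhR target genes 0 of 7 tested rose by edgeR's test and 3 fell (42.9%), against 13.9% and 16.8% of all genes. In a list of 7 genes, 0 rises lie near the share of all genes. Cyp1a1, the enzyme most used as a readout of AhR, ran from 0.04 to 0.66 FPKM in vehicle mice (median 0.19) and from 0.08 to 0.71 FPKM in dosed mice (median 0.33). The log2 fold change was 0.43 (SE 0.45, interval -0.49 to 1.35, adjusted p = 0.481), and leaving out or reprocessing libraries gave 0.09 to 0.86. Cyp1b1 fell by 3.97 (SE 0.83, adjusted p = 0.00191). Vehicle replicates 5, 6 and 9 stood highest, with 8.69, 14.51 and 4.93 FPKM. The remaining vehicle mice ran from 0.16 to 1.45 FPKM and the dosed mice from 0.06 to 0.32 FPKM. The call is lost with quantile normalization. Tiparp, a feedback inhibitor, fell by 0.54 and Ugt1a6a, a glucuronosyltransferase, by 0.98, while Ahrr, the AhR repressor, was at -0.36 (adjusted p = 0.229, lower and called with quality weights and without vehicle replicate 9), Nqo1 at 0.12 (0.64) and Aldh3a1 at 0.62 (0.194). The median over the 7 tested targets was -0.36; Cyp1a2 and Ugt1a6b did not pass the filter. Of the receptor and its partners, Ahr was at -0.15 (adjusted p = 0.0928) and Arnt2 at -0.13, Arnt fell by 0.24, and Ptges3 was at 0.14. Hsp90ab1 rose by 0.23, a call lost under 22 alternatives, among them 15 in which 1 library was left out. Arnt loses its call with exon length correction, with the replicate block and when no filter is used, and Ahr passes with quality weights and without vehicle replicate 6 and A1007 30 replicate 1 together.

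The promoters of Cyp1b1 and Cyp1a1 are shown because they hold GCGTG, the core letters of the AhR response element, in capitals on either strand.
Cyp1b1, chr17:79715062-79715311, minus strand: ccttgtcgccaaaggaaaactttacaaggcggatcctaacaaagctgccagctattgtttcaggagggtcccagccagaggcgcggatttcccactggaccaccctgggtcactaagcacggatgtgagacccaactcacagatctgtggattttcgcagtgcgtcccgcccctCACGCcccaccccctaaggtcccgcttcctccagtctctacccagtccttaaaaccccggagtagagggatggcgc
Cyp1a1, chr9:57697363-57697612, plus strand: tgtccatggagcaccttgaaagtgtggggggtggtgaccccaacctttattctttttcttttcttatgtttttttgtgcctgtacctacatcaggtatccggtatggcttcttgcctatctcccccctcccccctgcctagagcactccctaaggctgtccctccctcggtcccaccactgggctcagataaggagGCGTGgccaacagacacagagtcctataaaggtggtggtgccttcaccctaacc
The core stood in 4 of 7 AhR targets with a promoter in the table (57.1%) and in 47.3% of tested genes with one, so it is common in windows of this length.

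Of 9 tryptophan pathway genes, some of which make AhR ligands, 1 rose (11.1%) and 2 fell (22.2%). Both are near the 13.9% and 16.8% of all genes. Kyat1, a kynurenine aminotransferase, ran from 2.97 to 8.3 FPKM in vehicle mice and from 8.09 to 15.25 FPKM in dosed mice (1.23, SE 0.18, adjusted p = 0.000134). Tph1 fell by 0.58, and Tdo2, which opens the tryptophan ring, by 0.60, a call lost under 22 alternatives. Xenobiotic genes rose in 5 of 33 cases (15.2%) and fell in 3 (9.09%), near or below the shares of all genes. Among them were the glutathione transferases Gstm1 at 0.79 and Gsta4 at 0.47 and Txnrd1, a reductase of the NRF2 response, at -0.43. With exon length correction 3 rose.

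Respiratory chain genes of the nucleus rose in 12 of 20 cases and fell in 0, by small amounts, with Ndufa1 at 0.59, Ndufb5 at 0.51 and Sdhc, of complex II, at 0.33. Without vehicle replicates 4, 5 or 8 or A1007 30 replicates 3, 5 or 8, 7 rose, and 6 with exon length correction or the replicate block. Mitochondrial genome genes rose in 4 of 13 cases (30.8%), with mt-Nd4 at 0.57, where 13.9% of all genes rose and 16.8% fell. The count was 10 without vehicle replicate 9 and 1 without vehicle replicates 4, 5, 7 or 8 or A1007 30 replicate 6. Fatty acid oxidation and cholesterol synthesis genes were called less often than all genes. The former rose in 1 of 22 cases (4.55%), Hadhb at 0.27, and fell in 1 (4.55%), Angptl4 at -1.66, lost with quality weights. The falls numbered 3 without vehicle replicate 9 or A1007 30 replicate 1. Cholesterol synthesis genes fell in 1 of 20 cases (5.0%), Nsdhl at -0.28, a call lost under 14 alternatives. Ribosomal protein genes, a list added after the values were seen, rose in 55 of 85 cases with a median of 0.48. The count was 36 without A1007 30 replicate 7, 84 with quality weights and 44 with exon length correction. They took a median of 4.84% of counts at 30 mpk, 4.13% at 10 mpk, 3.71% at 90 mpk, 3.3% in vehicle and 2.96% in sham. Against 10 mpk, 2 of the 85 ribosomal protein genes were higher at 30 mpk and 0 lower.

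These genes have short transcripts, and calls followed transcript length over all genes. Genes were split by exon length into 5 bins of 3337. In the bin of shortest genes (median 1310 bases) 25.7% rose and 7.07% fell. In the bin of longest genes (median 9544 bases) 4.38% rose and 29.9% fell. With a smoothed correction for exon length in each library the shares were 12% and 14.5% in the shortest bin and 11.7% and 16.8% in the longest. The correction takes out a trend over length by design, so the even shares are not a separate result. It left 4574 genes called, 3744 of them shared with the uncorrected calls in the same direction. With the correction 16 collagens fell and 13 immediate early genes rose, as without it.

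**Figure D5:**
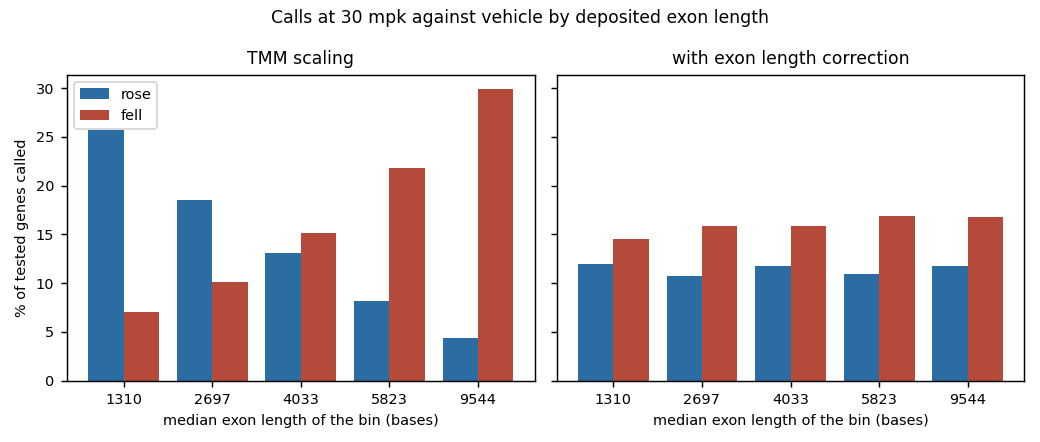
Share of tested genes that rose or fell at 30 mpk against vehicle, in 5 bins of the deposited exon length (median in bases below each pair of bars), without and with a correction for length. The slope from 25.7% to 4.38% of rises and from 7.07% to 29.9% of falls is absent after correction, which removes such a trend by design.

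Vehicle mice varied more than dosed mice. On the log2(FPKM + 0.5) scale the SD was larger in vehicle for 14007 of 16685 genes (83.9%), with medians of 0.264 and 0.172, and for alarmins the medians were 2.674 and 0.6. Set beside sham, of the 516 genes that fell at least 2-fold 470 had a vehicle mean above sham, and at 30 mpk 197 had a mean at or below sham while 319 stayed above it. Of the 167 that rose at least 2-fold, 150 had a mean above sham at 30 mpk. Both sets were chosen by the same vehicle and 30 mpk values, which partly fixes these counts. No share over all genes was computed. S100a9 averaged 0.747 FPKM in sham and 6.281 at 30 mpk, Lox 0.869 and 4.3, and Mptx1 1252 and 5367.

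Against the lower dose, 10 mpk, 423 of 16764 genes (2.52%) differed, 80 higher (0.477%) and 343 lower (2.05%) at 30 mpk. Collagens were lower at 30 mpk in 15 of 19 cases, and Pdgfra averaged 6.549 FPKM at 30 mpk and 11.15 at 10 mpk (-0.74, adjusted p = 0.00102). Macrophage genes were lower in 7 of 25 cases, with Mrc1 at -0.72, matrix proteins and fibroblast genes in 10 of 28 and proteases in 8 of 22. Fosb and Atf3 were at 0.92 and 0.91 over 10 mpk, with adjusted p = 0.368 and 0.383 in edgeR. With the replicate block 9 collagens, 6 matrix genes and 2 proteases were lower and 134 genes in all differed. In the fit of 40 mice 14 collagens, 5 matrix genes and 5 proteases were lower.

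Against the higher dose, 90 mpk, 3154 of 16718 genes (18.9%) differed in the fit of the 20 mice concerned, but 63 in a fit of all 40 TNBS mice with 1 shared spread. Of the 3154, 1883 (11.3%) were higher and 1271 (7.6%) lower at 30 mpk. These calls followed exon length too. In the bin of shortest genes 27.8% were higher and 1.47% lower, and in the bin of longest genes 1.5% and 19.1%. With exon length correction 1897 genes differed. Immediate early genes were higher at 30 than at 90 mpk in 19 of 25 cases, and in 14 in the fit of 40 mice. Atf3 was higher by 3.60 (adjusted p = 9.91e-05), Hbegf by 3.13 and Fosb by 2.98, all called in both fits. Heat shock genes were higher in 7 of 13 cases, and 1 in the fit of 40 mice, Dnajb1 at 0.84. Ribosomal genes were higher in 83 of 85 cases in the 20 mice, in 71 with exon length correction and in 0 in the fit of 40. Of 19 collagens 0 were called between 30 and 90 mpk by edgeR or DESeq2, and 3 had an unadjusted p under 0.05; Col4a2 was at -0.25 (interval -0.51 to 0.00, adjusted p = 0.152). Since dose comparisons share the 30 mpk mice with the comparison against vehicle, their values are side by side and not independent.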

How the data were processed

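Poly(A) RNA of mouse colon was sequenced; 20 of 50 libraries enter the main comparison. Per the submitters' processing notes, reads were trimmed with cutadapt 1.9.1, aligned with HISAT2 2.2.1 to GRCm39 and counted with HTSeq 0.6.1, and DESeq2 was used. The authors deposited raw counts per gene and FPKM for 56691 genes. FPKM recomputed from the deposited counts and exon lengths agreed within 1% for 99.997% of values with at least 500 counts. How strand was treated is not given in the sources used here, so antisense partners and close paralogs are uncertain.

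Counts were tested with edgeR 4.0.16 (quasi-likelihood, robust, TMM scaling, filterByExpr with a count minimum of 10, Benjamini-Hochberg over all genes tested, two-sided, adjusted p under 0.05) in R 4.3.3, on the groups compared only, because the groups' spreads differ. Scripts were tested on simulated data. Alternatives were a fit of 40 TNBS mice, DESeq2 1.42.0, limma 3.58.1 with quality weights or on log2(FPKM + 0.5) and log2(FPKM + 1), a rank-sum test, upper-quartile and quantile scaling, no filter, a count minimum of 50, the replicate number as a block and each library left out. An exon length correction and the removal of vehicle replicate 6 with A1007 30 replicate 1 were chosen after seeing the data. Intervals are 95% intervals of the fit.

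The design, the 55 gene lists (938 genes, 839 tested) and the comparison were chosen with earlier results of these data known. Named were the 10 largest rises and falls with a mean of at least 2 FPKM, the 10 smallest p, the AhR lists and, per list, at most 3 called members of smallest p (2 of highest FPKM where none was called), without predicted genes; some items the rule names are not reported here. Gm26532, Itln1, Reg4, Reg3b, Nos2, Nr4a2, Dbp, Tef, Ciart, Tagln, Cd59a, Rgs13, Muc2, the genes drawn in figures and the 6 printed promoters were chosen after their values were seen. Of symbols held by 2 genes, such as Ddit3, the copy with most counts was used. The list plot leaves out lists under 10 tested genes. Promoters are from RefSeq (GRCm38.p6), whose coordinates were not combined with the files' own; 4 motifs were searched on both strands, and promoters were printed because they hold one. Jun, which holds no TGACG, and Dbp, which holds no CACGTG, were also looked at, and Tiparp holds 1 GCGTG.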

Additional observations from a re-analysis of the deposited data

Results flagged for a closer look

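Single libraries lay far from the other 9 of their group in 35 of 343 gene and group combinations tested by gap over range; chance gives about 1 in 20. Values are FPKM.

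A1007 30 replicate 1 was lowest in Mptx1 (903.2), Ang4 (207.6), Mptx2 (501.4), Mcpt1 (21.06), Myl9 (280.3), Smtn (22.48), Ckm (3.98), Hbb-bs (1.71) and Hba-a1 (0.44). It was highest in Clec4e (0.48) and Birc3 (14.24). A1007 30 replicate 3 was lowest in the B cell genes Cd79b (9.32) and Fcrla (1.81). Replicate 5 was highest in Chil3 (2.4). Replicate 7 was highest in Bcl11b (4.63) and lowest in Rrm2 (4.42), and replicate 10 was lowest in Cd44 (9.29) and Alpi (1.08).

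Vehicle replicate 5 was highest in Tiparp (15.72), Birc3 (22.61), Fbn1 (19.82), Cdh5 (17.83) and Dclk1 (3.77) and lowest in Insl5 (21.15) and Hoxb13 (18.06). Vehicle replicate 9 was highest in mt-Nd4 (4693), mt-Cytb (17820) and mt-Nd2 (5296) and lowest in Atf6 (6.37) and Hoxd10 (2.2). Vehicle replicate 6 was highest in Hamp2 (3.38) and lowest in Muc4 (1.6). Vehicle replicate 1 was highest in Calb2 (11.71) and Sox10 (1.44), and replicate 7 in Cyp1a2 (0.03).

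Direct tests between doses in edgeR gave 423 genes that differed between 30 and 10 mpk and 3154 between 30 and 90 mpk. Among the genes with the largest changes or smallest p, 30 mpk was lower than 10 mpk in Saa3 (-2.88), Ptx3 (-2.88), Lamb1 (-0.65), Mrc1 (-0.72) and Eif4g3 (-0.37), all log2 fold changes. The Saa3 and Ptx3 calls are lost in the fit of 40 mice and with the replicate block. Against 90 mpk, 30 mpk was higher in Fosb (2.98), Atf3 (3.60), Hbegf (3.13), Fos (1.77), Jun (1.17), Id1 (0.72), Tfeb (0.28) and Blnk (0.18) and lower in Eif4g3 (-0.20).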

How the results depend on the processing

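The 5131 calls against vehicle numbered 7979 with quality weights, and between 3922 (replicate block) and 5927 (DESeq2) under the other alternatives that keep all libraries. With 1 library left out they ran from 4211 to 6806. The 683 genes past 2-fold numbered 1222 with DESeq2, 1169 without a filter, 395 at a count minimum of 50, 363 with the rank-sum test and 306 and 226 with limma on log2(FPKM + 0.5) and log2(FPKM + 1), and 573 to 784 with 1 library left out. The cause was not tested. Against 10 mpk the 423 calls numbered 918 with DESeq2 and 134 with the replicate block. Against 90 mpk the 3154 calls numbered 63 in the fit of 40 mice and 1897 with exon length correction. Same-numbered samples did not deviate together (correlations -0.226 to 0.118, 3 of 10 pairs over 0.1, 0 of 10 best with their own number). The labels do not say what the number stands for, and low correlations cannot show that nothing else is shared. The block gave 537 genes past 2-fold. Of 159 called named genes 127 kept their call under every alternative. With exon length correction the Nqo1 log2 fold change turned to -0.128 and the Mcpt1 log2 fold change to -0.192. With 1 library left out the latter ran from -0.062 to 1.127 and the Mcpt2 log2 fold change from -0.154 to 1.086. The Mcpt2 log2 fold change, near 0, was 2.104 with quality weights, 1.098 by rank sums, 1.374 and 1.272 on FPKM, 0.020 with upper-quartile and 1.505 with quantile scaling, 0.007 at a count minimum of 50 and 1.340 with the replicate block.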
